A study of Homo sapiens with 6 samples.

Results

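The genes described here are 31 genes of cholesterol synthesis, sterol transport and the SREBP system, chosen by name: 19 enzymes that lead from acetyl-CoA to cholesterol, 5 genes of SREBP control, 5 genes of sterol transport, efflux and receptor turnover, and 2 enzymes of fatty acid synthesis. All 31 were found among the 32434 gene IDs of the expression table through GENCODE 29. The list does not hold every gene of the pathway, and it was chosen with earlier results of these data known. RNA was sequenced from SK-N-BE(2), an established human neuroblastoma line, carrying either a control short hairpin RNA (shNC, 3 libraries) or a hairpin against the transcription factor gene MYT1 (shMYT1, 3 libraries). Both groups were infected with lentivirus for 24 h and then kept in puromycin for 48 h, in medium with fetal bovine serum, which itself supplies cholesterol. The treatment text speaks of a stable knockdown and the genotype label of a knockout, and the sample names give 1 hairpin name per group. The labels do not say whether the 3 libraries of a group came from separate infections. The p-values therefore reflect only how far these libraries differ, which may be technical. In bulk RNA, fewer cells that express a gene and less of its RNA per cell cannot be told apart.

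Cholesterol is built from acetyl-CoA in the mevalonate pathway. Early enzymes make mevalonate and turn it into isoprenoid units, squalene synthase and its successors commit these units to sterols, and a final series of enzymes converts lanosterol to cholesterol. Most of these genes are targets of SREBP-2, a membrane-bound transcription factor that the escort protein SCAP carries to the Golgi apparatus for cleavage when sterols run low. INSIG proteins hold SCAP back in the endoplasmic reticulum when sterols are plentiful. LXR receptors answer to oxysterols and raise genes of sterol export. In neuroblastoma, as in other dividing cells, the pathway supplies membrane cholesterol and the lipid anchors of prenylated proteins.

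The libraries held 21079953 to 21677886 fragments on genes in shNC and 18158276 to 20301316 in shMYT1. Levels are in FPKM, fragments per kilobase of exon scaled to library size, and 3 fragments on a transcript of 1 kb equalled 0.1397 to 0.1697 FPKM. MYT1 measured 5.73, 5.12 and 5.18 FPKM in the shNC libraries and 4.20, 4.13 and 4.36 FPKM in the shMYT1 libraries. That is 20.8% less in the mean (log2 difference -0.28, limma adjusted p = 0.0102, exact two-sided permutation p = 0.1, the smallest that 3 against 3 allows). All 7 neuroblastoma markers were expressed, with summed levels of 1026 to 1130 FPKM in shNC and 978 to 1015 FPKM in shMYT1. All 7 were tested, and 2 were called lower and 3 higher (limma adjusted p under 0.05). The 8 fibroblast-type markers summed to 191 to 197 FPKM in shNC and 145 to 149 FPKM in shMYT1. Of the 7 of these markers that were tested, 3 were called lower and 2 higher. Among all genes tested, 12.3% were called lower and 11.9% higher. None of the 8 fibroblast-type markers was at 0. Their part in the results was not tested. The 3 immune markers found summed to at most 0.192 FPKM in any library, and the 4 epithelial markers to at most 1.74 FPKM.

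Of the 31 genes, 29 reached the level filter, a 6-library mean of 1 FPKM or more, and were tested. In shMYT1, 13 of the 29 were called lower (limma on log2(FPKM + 1), adjusted p under 0.05 over 14106 genes) and 0 were called higher. With limma, 0 genes of the set were also higher at an unadjusted p under 0.05, and voom on recovered fragments called 0 higher. Among all 14106 genes tested, 12.3% were called lower and 11.9% higher, against 44.8% of these genes called lower. The set and the related lists below were chosen with earlier results of these data known, so such shares only describe them. The largest falls were in SC5D, CYP51A1 and HMGCS1, whose mean FPKM fell by 48.5%, 48.0% and 33.7%. The other 10 genes called lower had log2 differences from -0.40 to -0.17. The median log2 difference was -0.12 over the 29 genes and -0.01 over all genes tested. Of the 29, 22 had a negative difference (75.9%, against 51.05% of all genes tested). Groups did not overlap, with all shMYT1 libraries below all shNC libraries, for 15 of the 29 genes (51.7%), against 21.8% of all genes tested. No overlap in the higher direction occurred for 0 of the 29, against 20.5% of all genes tested. Among the genes called, the size was ordinary: the median absolute log2 difference was 0.28 for the 13 and 0.27 for all genes called.

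**Figure D1:**
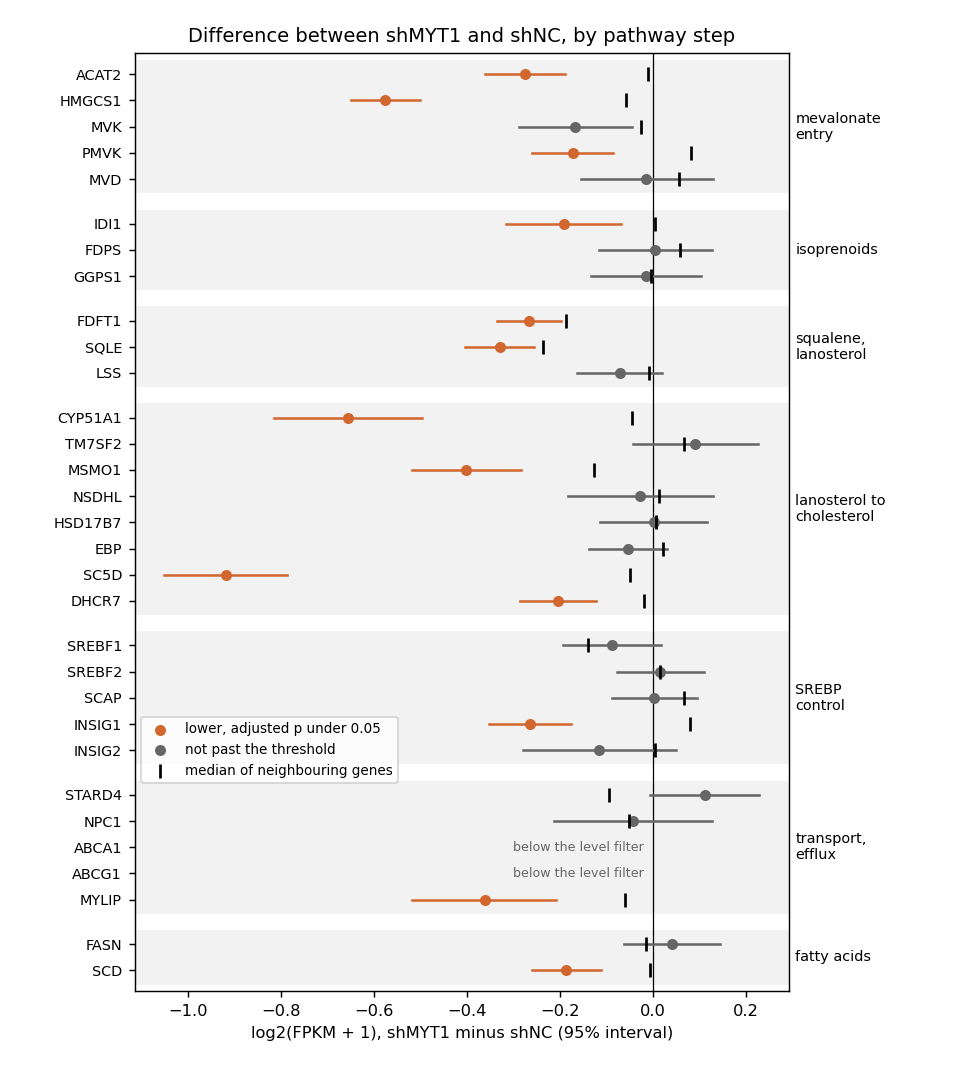
Difference in log2(FPKM + 1) between shMYT1 and shNC (points, horizontal axis) with 95% intervals from limma for the 29 tested genes, ordered by pathway step on the vertical axis. Colour separates the 13 genes called lower from the 16 not called, and vertical ticks give the median difference of the neighbouring tested genes. SC5D lies farthest to the left at -0.92, and no gene called lies to the right of 0.

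The 5 listed enzymes of mevalonate synthesis and activation summed to 112.0 ± 0.737 FPKM in shNC and 90.1 ± 0.602 FPKM in shMYT1 (SD, n = 3). That is 19.5% less, over a list that does not hold every enzyme of this step. HMGCS1 made the greater part of that drop, ACAT2 and PMVK fell by less, and MVK and MVD did not pass the test. HMGCS1, cytosolic HMG-CoA synthase, joins acetyl-CoA to acetoacetyl-CoA and lies on hg38 chromosome 5 from 43289395 to 43313512, minus strand. It measured 39.0, 40.5 and 39.2 FPKM in shNC and 26.5, 26.7 and 25.4 FPKM in shMYT1. The groups were far apart, with every shMYT1 library below every shNC library and little spread within a group. Its mean went from 39.6 ± 0.805 to 26.2 ± 0.707 FPKM (SD, n = 3), a log2 difference of -0.58 (SE 0.031, limma adjusted p = 0.000127). ACAT2, the cytosolic thiolase that makes acetoacetyl-CoA, measured 14.6, 15.7 and 14.7 FPKM in shNC and 12.3, 12.1 and 12.1 FPKM in shMYT1. All shMYT1 libraries were lower, and the log2 difference was -0.28 (SE 0.036, adjusted p = 0.00283). ACAT2 shares exon bases with 3 gene models on the opposite strand, with up to 33.9% of its exon length in 1 of them. TCP1, a chaperonin gene at 84.9 FPKM with a log2 difference of -0.01, shares 9.2%. Whether the counting used strand is not given in the sources used here, so reads of such pairs may be mixed. PMVK, phosphomevalonate kinase, measured 44.8, 42.2 and 44.9 FPKM in shNC and 37.6, 39.1 and 39.9 FPKM in shMYT1. Its groups did not overlap and its log2 difference was -0.17 (adjusted p = 0.0166). The call ended without shNC replicate 1 (adjusted p = 0.0600) and without shMYT1 replicate 1 (adjusted p = 0.0580).

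MVK, mevalonate kinase, measured 4.43, 4.15 and 4.59 FPKM in shNC and 3.97, 3.64 and 3.79 FPKM in shMYT1. The groups did not overlap, but the log2 difference of -0.17 (95% interval -0.29 to -0.04) missed the threshold at an adjusted p of 0.0565. It passed when libraries were rescaled to a common FPKM total (adjusted p = 0.0339) and with voom on recovered fragments (adjusted p = 0.0226). MVK shares 4.7% of its exon length with MMAB on the opposite strand. MMAB, at 6.41 FPKM, had a log2 difference of -0.21 (limma adjusted p = 0.0102), and reads of this pair may be mixed too. MVD, mevalonate diphosphate decarboxylase, measured 8.80, 9.04 and 9.61 FPKM in shNC and 9.35, 8.29 and 9.56 FPKM in shMYT1. Its libraries were intermixed, with a log2 difference of -0.01 (95% interval -0.16 to 0.13, adjusted p = 0.893). The 95% interval of MVD thus leaves out differences as large as that of HMGCS1.

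At the isoprenoid branch point, 1 of 3 genes was called lower, against 12.3% of all genes tested. The sum of the 3 differed by -3.3% (56.7 ± 0.0903 against 54.8 ± 2.00 FPKM, SD, n = 3). IDI1, isopentenyl diphosphate isomerase, measured 13.6, 13.3 and 12.8 FPKM in shNC and 10.7, 12.3 and 11.4 FPKM in shMYT1. The groups did not overlap, though the highest shMYT1 library came close to the lowest shNC library. Its log2 difference of -0.19 had an adjusted p of 0.0392, and in 9 of 17 other settings the call ended, with adjusted p-values from 0.0521 to 0.115. FDPS, which makes farnesyl diphosphate, the last intermediate shared by sterols and prenyl groups, measured 26.7, 26.8 and 28.99 FPKM in shNC and 26.3, 27.1 and 29.4 FPKM in shMYT1. The libraries were intermixed and the log2 difference was 0.00 (95% interval -0.12 to 0.13). GGPS1, which adds a further unit for geranylgeranylated proteins, ranged from 14.9 to 16.5 FPKM in shNC and from 15.3 to 16.5 FPKM in shMYT1. Its log2 difference was -0.02 (95% interval -0.13 to 0.10), and it shares 37.3% of its exon bases with TBCE on the same strand.

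Squalene and lanosterol synthesis showed a lower sum in shMYT1, 75.7 ± 1.51 against 90.9 ± 1.63 FPKM (SD, n = 3). FDFT1, squalene synthase and the first enzyme used by sterols alone, measured 41.1, 41.2 and 42.2 FPKM in shNC and 33.3, 34.7 and 35.0 FPKM in shMYT1. SQLE, squalene epoxidase, measured 33.6, 35.4 and 34.9 FPKM in shNC and 27.2, 28.0 and 26.9 FPKM in shMYT1. For both enzymes all shMYT1 libraries were well below all shNC libraries. The log2 difference was -0.27 for FDFT1 (SE 0.029, limma adjusted p = 0.00147) and -0.33 for SQLE (SE 0.031, adjusted p = 0.000867). Both genes lie on chromosome 8, where neighbouring genes were also lower: the median log2 difference of the 50 nearest tested genes was -0.19 around FDFT1 and -0.24 around SQLE. With the running median of the region removed, the differences were -0.07 (adjusted p = 0.201) and -0.09 (adjusted p = 0.108), and both calls ended. The regional shift and a change of each gene on its own cannot be told apart from these values. LSS, lanosterol synthase, which closes the sterol rings, ranged from 14.4 to 15.3 FPKM in shNC and from 13.5 to 14.4 FPKM in shMYT1. Its groups did not overlap, but the log2 difference of -0.07 (95% interval -0.16 to 0.02, adjusted p = 0.230) did not pass.

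The 2 largest falls were in the conversion of lanosterol to cholesterol. Of the 8 listed enzymes, 4 were called lower, against 12.3% of all genes tested, and 4 were not called. The sum of the 8 was 112 ± 1.26 FPKM in shNC and 85.2 ± 2.43 FPKM in shMYT1 (SD, n = 3), which is 23.8% less. SC5D, the sterol desaturase that makes 7-dehydrocholesterol from lathosterol, lies on hg38 chromosome 11 from 121292453 to 121308694, plus strand. It measured 36.6, 33.9 and 32.3 FPKM in shNC and 18.2, 18.1 and 16.7 FPKM in shMYT1. The highest shMYT1 library was far below the lowest shNC library. The mean was 34.3 ± 2.21 FPKM in shNC and 17.7 ± 0.861 FPKM in shMYT1 (SD, n = 3), 1.94-fold lower. The log2 difference was -0.92 (SE 0.055, 95% interval -1.05 to -0.79, adjusted p = 0.000188), on 1648 to 4380 fragments per library. Only 0.46% of all genes tested had a difference as low or lower. The 50 nearest tested genes around SC5D had a median log2 difference of -0.05.

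CYP51A1, lanosterol demethylase, is the cytochrome P450 that opens this series, on hg38 chromosome 7 from 92112151 to 92134803. It measured 3.22, 2.99 and 3.21 FPKM in shNC and 1.70, 1.75 and 1.45 FPKM in shMYT1. The mean of 3.14 ± 0.128 FPKM dropped by 48.0% to 1.63 ± 0.159 FPKM (SD, n = 3), with a log2 difference of -0.66 (SE 0.067, adjusted p = 0.00112). The added 1 FPKM understates the change of a gene at this level, and the log2 difference was -0.91 with 0.1 FPKM added and -0.95 with voom on recovered fragments. CYP51A1 shares 79.4% of its exon bases with the gene model AC000120.2 on the same strand, and its recovered fragments, about 92 to 248 per library, were not whole numbers. How reads were divided between the models is not given in the sources used here, so its level is uncertain. MSMO1, the methylsterol monooxygenase of the next demethylations, measured 19.5, 20.8 and 19.6 FPKM in shNC and 15.9, 14.7 and 14.1 FPKM in shMYT1. All shMYT1 libraries were lower, and the mean fell from 19.9 ± 0.738 to 14.9 ± 0.891 FPKM (SD, n = 3), a log2 difference of -0.40 (SE 0.049, adjusted p = 0.00223). The neighbours of MSMO1 had a median of -0.13. With the regional median removed, the log2 difference of MSMO1 was -0.28 and still called. DHCR7, which reduces 7-dehydrocholesterol to cholesterol, measured 21.3, 20.5 and 20.9 FPKM in shNC and 17.9, 18.7 and 17.5 FPKM in shMYT1. Its groups were also apart, with a log2 difference of -0.20 (SE 0.034, adjusted p = 0.00723). SC5D and DHCR7 act one after the other, and their log2 differences of -0.92 and -0.20 were both called, though a difference between them was not tested.

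The other 4 enzymes of this series did not pass. TM7SF2, a sterol reductase, ranged from 3.39 to 3.88 FPKM in shNC and from 3.72 to 3.97 FPKM in shMYT1, with a log2 difference of 0.09 (95% interval -0.04 to 0.23). NSDHL, which acts with MSMO1 in removing methyl groups, ranged from 10.9 to 13.0 FPKM in shNC and from 11.4 to 12.4 FPKM in shMYT1, with a log2 difference of -0.03. HSD17B7, the ketosteroid reductase of the same complex, ranged from 2.51 to 2.54 FPKM in shNC and from 2.49 to 2.58 FPKM in shMYT1. Its log2 difference was 0.00. EBP, which shifts the ring double bond before SC5D acts, ranged from 15.2 to 15.7 FPKM in shNC and from 14.4 to 15.4 FPKM in shMYT1, with a log2 difference of -0.05 (adjusted p = 0.310). For these 4 enzymes the groups overlapped. The 19 listed enzymes summed to 370.6, 371 and 372 FPKM in shNC and 303, 309 and 306 FPKM in shMYT1, 17.7% less on average.

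**Figure D2:**
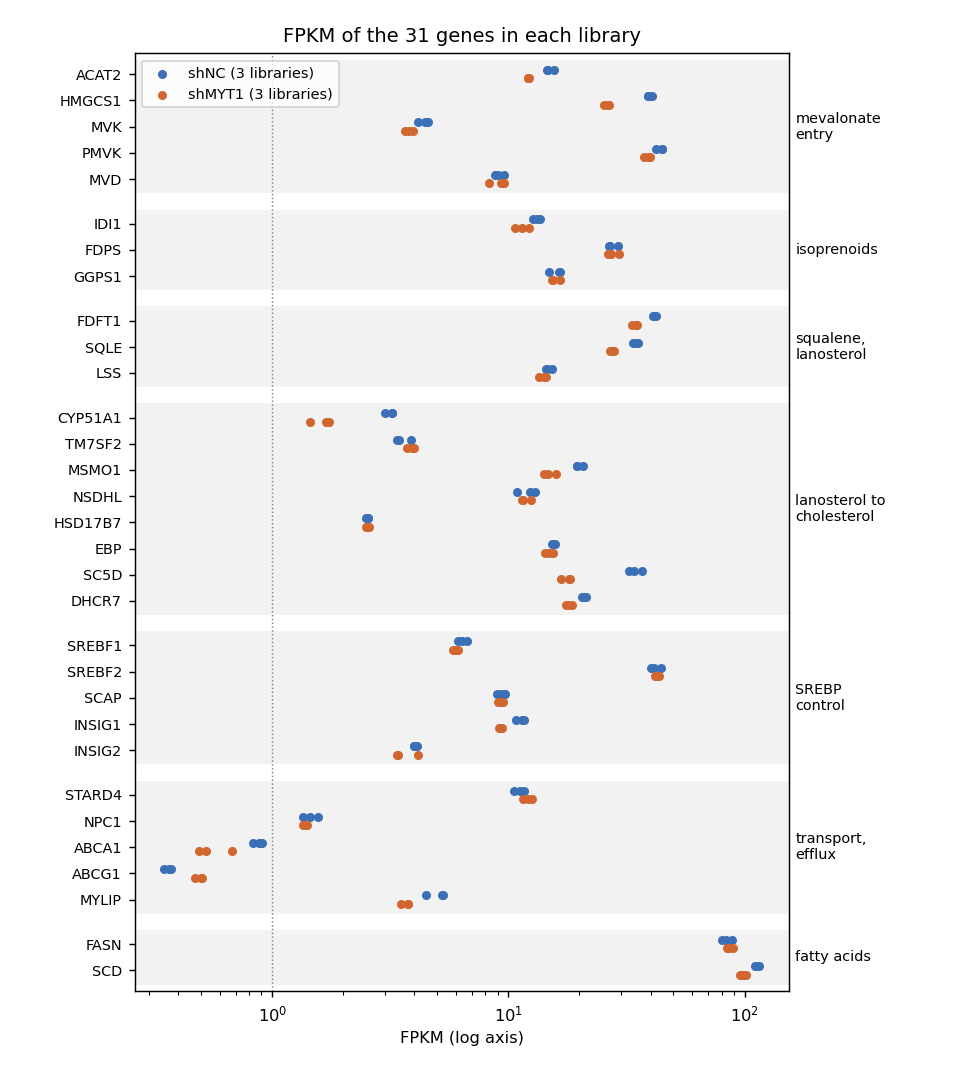
FPKM of each of the 31 genes in each library on a logarithmic horizontal axis, grouped by pathway step on the vertical axis, with shNC and shMYT1 in separate colours and 3 points per group; the dotted line marks the level filter of 1 FPKM. The shMYT1 points of SC5D, CYP51A1 and HMGCS1 stand clear of the shNC points, while those of FDPS, MVD, SREBF2 and SCAP overlap them.

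Of the 5 genes of SREBP control, 1 was called lower, against 12.3% of all genes tested. SREBF2 encodes SREBP-2, the main activator of the synthesis enzymes, and measured 41.4, 40.3 and 44.4 FPKM in shNC and 42.2, 41.9 and 43.3 FPKM in shMYT1. The shMYT1 libraries lay within the range of shNC, and the log2 difference was 0.02 (95% interval -0.08 to 0.11, limma adjusted p = 0.802). SREBF1, whose protein acts more on fatty acid genes, measured 6.37, 6.13 and 6.71 FPKM in shNC and 6.15, 5.80 and 5.93 FPKM in shMYT1. The groups overlapped, with a log2 difference of -0.09 (95% interval -0.19 to 0.02). SCAP, the escort and sterol sensor, ranged from 8.96 to 9.65 FPKM in shNC and from 9.08 to 9.51 FPKM in shMYT1, with a log2 difference of 0.00 (95% interval -0.09 to 0.10). RNA levels do not measure cleavage of the SREBP proteins, which was not assayed. INSIG1, which retains SCAP and is itself a sterol-regulated SREBP target, measured 10.8, 11.6 and 11.5 FPKM in shNC and 9.13, 9.36 and 9.21 FPKM in shMYT1. All shMYT1 libraries were lower, and the mean fell from 11.3 ± 0.425 to 9.23 ± 0.117 FPKM (SD, n = 3), a log2 difference of -0.27 (SE 0.037, adjusted p = 0.00360). The neighbouring genes of INSIG1 had a median log2 difference of 0.08, opposite in sign. INSIG2, its paralogue, measured 4.10, 4.004 and 3.97 FPKM in shNC and 3.43, 4.14 and 3.39 FPKM in shMYT1. Of the shMYT1 libraries, replicate 2 stood above all shNC libraries and the other 2 below them. The log2 difference was -0.12 (adjusted p = 0.276), and without shMYT1 replicate 2 it was -0.19 (adjusted p = 0.0459).

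Among the genes of sterol transport, efflux and receptor turnover, MYLIP was called lower, and 2 of the 5 genes were below the level filter. MYLIP, an LXR-induced ubiquitin ligase that degrades lipoprotein receptors, measured 5.25, 5.31 and 4.50 FPKM in shNC and 3.75, 3.77 and 3.51 FPKM in shMYT1. All shMYT1 libraries were lower, with means of 5.02 ± 0.453 and 3.68 ± 0.145 FPKM (SD, n = 3) and a log2 difference of -0.36 (SE 0.065, adjusted p = 0.00918). ABCA1, the LXR-induced pump that loads cholesterol onto apolipoproteins, measured 0.833, 0.877 and 0.903 FPKM in shNC and 0.490, 0.523 and 0.675 FPKM in shMYT1. The groups did not overlap, but in the fit without a level filter the log2 difference of -0.26 (SE 0.081) had an adjusted p of 0.127, on 105 to 215 fragments per library. ABCG1, a related exporter, was at 0.350, 0.374 and 0.366 FPKM in shNC and 0.499, 0.471 and 0.506 FPKM in shMYT1. Here all shMYT1 libraries were above all shNC libraries, in the direction opposite to ABCA1. The log2 difference was 0.13 (adjusted p = 0.255 without the filter), on 46 to 61 fragments. STARD4, a soluble sterol carrier and SREBP target, measured 11.2, 11.6 and 10.5 FPKM in shNC and 12.7, 12.1 and 11.5 FPKM in shMYT1. Its log2 difference of 0.11 (95% interval -0.01 to 0.23) did not pass at an adjusted p of 0.153. STARD4 thus had a positive difference where most synthesis enzymes had a negative one. Its neighbours had a median of -0.09, and with the regional median removed it was called higher (0.20, adjusted p = 0.0160). NPC1, which exports cholesterol from lysosomes, ranged from 1.35 to 1.57 FPKM in shNC and from 1.355 to 1.399 FPKM in shMYT1, with a log2 difference of -0.04.

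The 2 fatty acid enzymes, both SREBP targets and the most highly expressed genes of the 31, differed from each other. FASN, fatty acid synthase, measured 80.2, 83.6 and 88.7 FPKM in shNC and 86.3, 84.0 and 89.4 FPKM in shMYT1. The groups overlapped, with a log2 difference of 0.04 (95% interval -0.06 to 0.14). SCD, which makes monounsaturated fatty acids, measured 115, 110.5 and 111 FPKM in shNC and 95.6, 98.9 and 102 FPKM in shMYT1. All shMYT1 libraries were below all shNC libraries, and the mean fell from 112 ± 2.49 to 98.7 ± 2.98 FPKM (SD, n = 3). The log2 difference was -0.19 (SE 0.031, adjusted p = 0.00752), outside the 95% interval of FASN, though the difference between the genes was not tested.

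The promoters of these genes were searched for short motifs because SREBP acts at them together with the factors NF-Y, which binds CCAAT, and Sp1, which binds GC boxes. RefSeq (GRCh38.p14) held windows from 250 bases before to 50 bases after the start for 26 of the 31 genes, 34 windows in all, and 35116 windows over all genes. Each motif was searched on both strands. CCAAT was in 21 of the 34 windows (61.8%) and in 34.6% of all windows. The GC box GGGCGG was in 31 of the 34 (91.2%), against 45.0% of all windows and 67.0% of those of tested genes. The E-box CACGTG was in 6 (17.6%, against 7.3% of all windows and 9.7% of those of tested genes). Counted by gene, it was found for 5 of 26 (19.2%, against 13.1% of tested genes with a window). AAAGTTT, a core of MYT1-type elements, was in 0 of the 34 windows (against 4.3% of all windows and 3.0% of those of tested genes). A sterol regulatory element TCACNCCAC was in 1 window (2.9%, against 1.1% of all windows), that of SREBF2. Its shorter form CACNCCAC, which lies within the longer one and was added after the data were seen, was in 7 (20.6%, against 5.9% of all windows). CCAAT did not separate the genes by call: it was found for 8 of 10 genes called lower with a window and for 11 of 15 other tested genes. The GC box was found for 10 of 10 and 14 of 15. The shorter sterol element was found for 4 of 10 and 1 of 15 (against 7.6% of all tested genes with a window), and the longer one for 0 of 10 and 1 of 15. As the shorter form was added after the data were seen, its split by call is description only and was not tested. ACAT2, FDFT1 and SQLE, also called lower, had no window. A match describes letters and not a bound site. The stretches around CCAAT are printed 5′ to 3′ on the strand of the gene, with the match in capitals (ATTGG where it lies on the other strand), for 4 genes called lower and for 2 genes with log2 differences near 0, so that both kinds can be compared, and the last line shows the sterol element of SREBF2.
SC5D: cgccggtcgctgATTGGctggccgctcca
HMGCS1: ctaccggccgcgATTGGctgtgggagcca
MSMO1: agctctcgcaggCCAATaacgacaggacg
INSIG1: cgccggcctcccATTGGttgcggccgcct
FDPS: tcccgcgggcacATTGGgagttgtagtct
MVD: ggctcgcacgggCCAATcctgtggtagcg
SREBF2: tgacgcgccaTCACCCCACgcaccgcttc
They lie at chr11:121292703-121292731 (plus strand, SC5D), chr5:43313496-43313524 (minus, HMGCS1), chr4:165327623-165327651 (plus, MSMO1), chr7:155297696-155297724 (plus, INSIG1), chr1:155308803-155308831 (plus, FDPS), chr16:88663160-88663188 (minus, MVD) and chr22:41832962-41832990 (plus, SREBF2). The capitals begin 56 bases before the start for SC5D, 100 for HMGCS1, 34 for MSMO1, 170 for INSIG1, 51 for FDPS and 85 for MVD. SC5D and HMGCS1 each have a second start in RefSeq: from it the SC5D box begins at -137, and the second HMGCS1 window holds no CCAAT. The box is thus present in at least 1 window of SC5D and HMGCS1, both called lower, and of FDPS and MVD, both not called.

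Of 20 other genes of SREBP processing and sterol-regulated protein degradation, 7 were called lower (35.0%, against 12.3% of all genes tested). Only 1 was called higher (5.0%, against 11.9%), and the median log2 difference was -0.07. The count of 7 rests on single libraries: it became 2 when shNC replicate 2 was left out, 4 when shNC replicate 1 was, and 3 when any 1 of the shMYT1 libraries was. The replicate block gave 4, and removal of the regional median gave 2. RNF145, a ubiquitin ligase of the sterol-sensing system, fell from 40.4 ± 0.438 to 33.7 ± 0.269 FPKM (SD, n = 3; log2 difference -0.26, limma adjusted p = 0.000862). ERLIN2, which takes part in degrading sterol-bound endoplasmic reticulum proteins, had a log2 difference of -0.27 (adjusted p = 0.0131), and RNF139, another ligase, -0.24 (adjusted p = 0.00808). These last 2 genes lie on chromosome 8, where their neighbours had medians of -0.20 and -0.25. With the regional median removed neither was called (log2 differences of -0.06 and 0.01). ERLIN2 also lost its call without shNC replicate 2 (adjusted p = 0.0523). SEC24C, a coat protein of the vesicles that leave the endoplasmic reticulum, had a log2 difference of 0.12 (adjusted p = 0.0461), and its call ended in 10 of 17 other settings.

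Of 19 tested genes of other isoprenoid branches and sterol enzyme partners, 17 were not called, and the median log2 difference was 0.01. The 1 called lower and the 1 called higher are 5.3% each, against 12.3% and 11.9% of all genes tested. FNTA, a subunit shared by protein prenyltransferases, was called lower (6.30 to 5.27 FPKM, log2 difference -0.22, limma adjusted p = 0.00827). It lies on chromosome 8 with neighbours at -0.23, and with the regional median removed it was at 0.02. DHDDS, which makes dolichol, was called higher (log2 difference 0.14, adjusted p = 0.0453), a call that ended in 11 of 17 other settings.

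Of 19 tested genes of fatty acid synthesis and other SREBP-1 targets, 6 were called lower (31.6%, against 12.3% of all genes tested), 3 higher (15.8%, against 11.9%) and 10 were not called. The median log2 difference was -0.07. ME1, malic enzyme, a source of NADPH, fell from 8.94 to 6.88 FPKM (log2 difference -0.34, limma adjusted p = 0.00545). GPAM, which starts glycerolipid synthesis, fell from 17.3 to 13.5 FPKM (-0.33, adjusted p = 0.00223), and ACSL3, an acyl-CoA synthetase, from 13.0 to 10.5 FPKM (-0.28, adjusted p = 0.00179). In the other direction, SCD5, the second human desaturase of the SCD family, rose from 5.27 ± 0.179 to 7.53 ± 0.0275 FPKM (SD, n = 3; 0.45, adjusted p = 0.000571). The direction of SCD5 is thus opposite to that of SCD. Its neighbours had a median of 0.17, and with the regional median removed its log2 difference was 0.28 and still called. ACLY, which supplies acetyl-CoA to both fatty acids and sterols, rose from 110.0 ± 1.29 to 128.9 ± 3.30 FPKM (SD, n = 3; 0.23, adjusted p = 0.00199). ACLY feeds ACAT2 and HMGCS1, which fell. ELOVL1, a fatty acid elongase, had a log2 difference of 0.19 (adjusted p = 0.0459), and its call ended in 9 of 17 other settings.

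Of 16 tested genes of sterol uptake, transport and oxysterol synthesis, 1 was called lower (6.2%, against 12.3% of all genes tested). In the other direction, 3 were called higher (18.8%, against 11.9% of all genes tested). The 3 became 1 without shNC replicate 1 and without any 1 of the shMYT1 libraries. VLDLR, a lipoprotein receptor, fell from 4.599 to 3.74 FPKM (log2 difference -0.24, limma adjusted p = 0.00944), and with the regional median removed the difference was -0.16. OSBPL5, a lipid transfer protein, rose from 3.84 to 5.09 FPKM (0.33, adjusted p = 0.00530). NPC2, the lysosomal partner of NPC1, rose by 0.32 on the log2 scale ( adjusted p = 0.0285), and its call ended in 7 of 16 other settings. At this low level its log2 difference was 0.54 with 0.1 FPKM added and 0.58 with voom. GRAMD1A, a carrier of plasma membrane cholesterol, had a log2 difference of 0.23 (adjusted p = 0.0398). Its call ended in 10 of 17 other settings. It lies on chromosome 19 with neighbours at 0.24, and with the regional median removed its value was -0.03.

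Of 10 tested LXR receptors, partners and other targets, 2 were called lower (against 12.3% of all genes tested) and 2 higher (against 11.9%). Without any 1 of the 6 libraries, 1 of the 10 was called lower. NR1H2, which encodes LXR beta, rose from 5.49 ± 0.145 to 7.11 ± 0.287 FPKM (SD, n = 3; log2 difference 0.32, limma adjusted p = 0.00275). Its neighbours on chromosome 19 had a median of 0.25, and with the regional median removed it was at 0.05 (adjusted p = 0.382). PLTP, phospholipid transfer protein, rose from 10.2 to 13.4 FPKM (0.36, adjusted p = 0.0121). LPCAT1, an enzyme of phosphatidylcholine remodelling, fell from 25.5 to 21.8 FPKM (-0.21, adjusted p = 0.00618). NCOR1, a corepressor, had a log2 difference of -0.15 (adjusted p = 0.0442), and its call ended in 11 of 17 other settings. Among the LXR-induced genes described, MYLIP thus fell while PLTP rose.

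**Figure D3:**
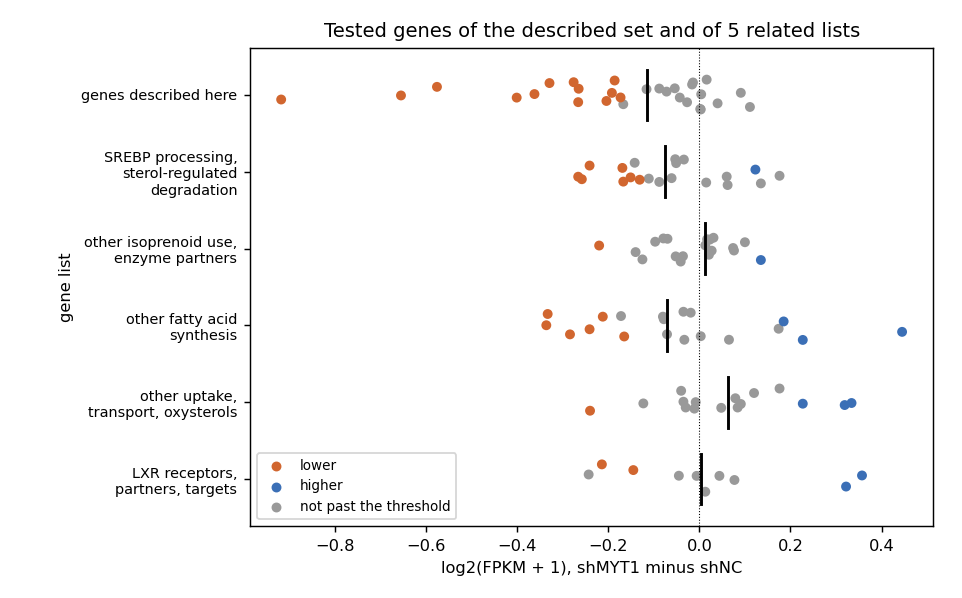
Difference in log2(FPKM + 1) between shMYT1 and shNC (horizontal axis) for each tested gene of the 31 and of 5 related lists (vertical axis), 1 point per gene, coloured by call. The 31 genes hold 13 calls to the left of 0 and none to the right, while the list of other fatty acid genes holds 6 to the left and 3 to the right.

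The calls were recomputed under 17 other settings of scaling, filter, model and libraries left out. The call of 9 genes was kept in every setting in which they were tested: ACAT2, HMGCS1, CYP51A1, MSMO1, SC5D, DHCR7, INSIG1, MYLIP and SCD. CYP51A1 and MYLIP were not tested at a minimum mean of 5 FPKM. The log2 difference of SC5D ranged from -0.96 to -0.85 over the settings and that of HMGCS1 from -0.61 to -0.51. The remaining 4 genes called lower, PMVK, IDI1, FDFT1 and SQLE, lost the call in the settings given beside them. When libraries were rescaled to a common FPKM total, 36.5% of all calls were higher, against 49.2% as deposited, the median over all genes moved to -0.03, and 16.1% of all genes were called lower.

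**Figure D4:**
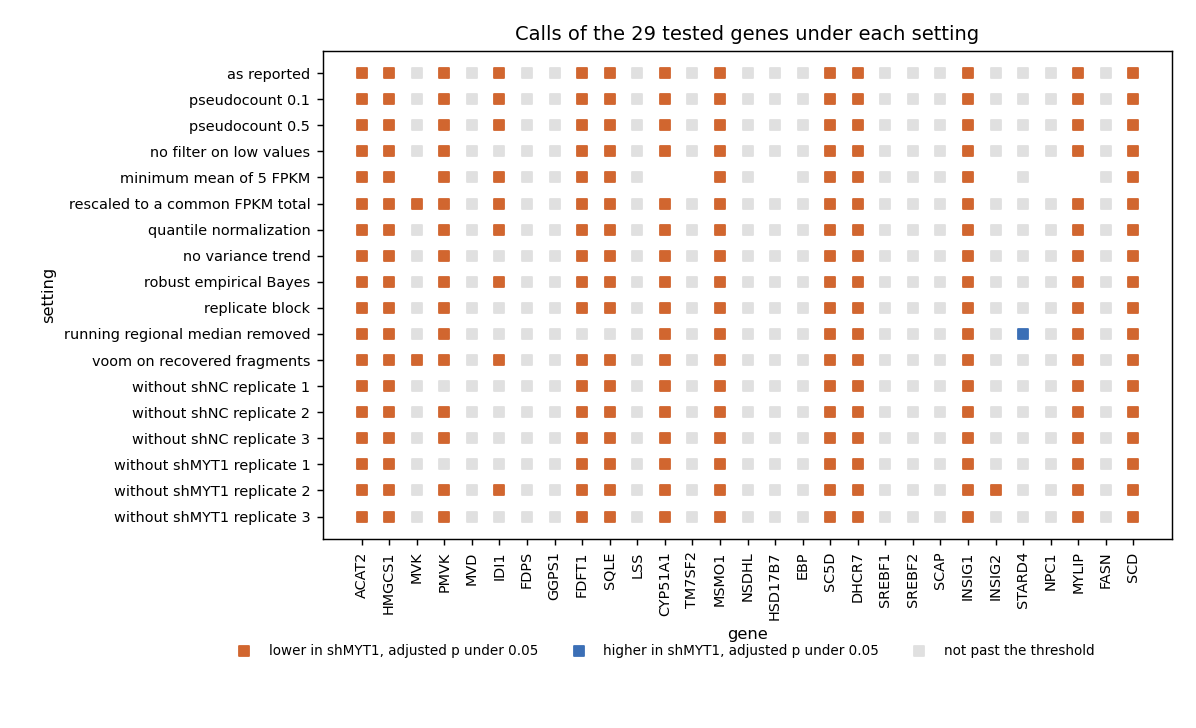
Call of each of the 29 tested genes (horizontal axis) under the main setting and 17 others (vertical axis), with squares coloured by whether the gene was lower, higher or not past an adjusted p of 0.05 in limma. SC5D, HMGCS1 and MSMO1 are called lower in every row, IDI1 in fewer, and STARD4 is called higher in 1 row.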

How the data were processed

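The deposited table holds FPKM for 32434 Ensembl genes in 6 libraries. Reads were aligned with HISAT2 2.0.5 and counted with featureCounts 1.5.0-p3 on hg38, per the submitters' processing notes; the annotation is not given in the sources used here, nor is the strand setting. Gene names, positions and exon lengths came from GENCODE 29, which matched 99.59% of IDs. FPKM multiplied by exon length gave whole fragments (within 0.01) in all libraries for 95.4% of matched IDs, which gives the depths; the deposited FPKM of the authors already carry a median-of-ratios scaling, since the median ratio to the geometric mean was equal across libraries to within 7e-08%. Genes with a mean of 1 FPKM or more were compared on log2(FPKM + 1) with limma 3.58.1 in R 4.3.3 (variance trend, two-sided, Benjamini-Hochberg over 14106 genes, call at 0.05). Fold changes on this scale understate those of low genes. The fit was also run on simulated counts with the same spread setting for every gene and fewer changed genes than were called here. That run is no check of the single calls. Alternatives were pseudocounts of 0.1 and 0.5, no filter, a minimum mean of 5 FPKM, rescaling, quantile normalization, no variance trend, robust variance, a replicate block, removal of the running median of 51 neighbouring genes, voom on recovered fragments and leaving out each library. All genes of the described set and MYT1 are named; of each related list, up to 3 called genes per direction with the largest difference. The members and lists were chosen with earlier results of these data known.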

Additional observations from a re-analysis of the deposited data

How the results depend on the processing

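The count of described genes called lower was 13 and lay between 10 and 14 under the 17 alternatives, and between 11 and 14 when each library was left out in turn. The count called higher was 0, and 1 (STARD4) with the regional median removed. The replicate block gave 12 lower, with IDI1 at an adjusted p of 0.0594, and changed no other call among these genes. Libraries with the same number had deviations correlated at 0.0327, 0.0127 and 0.0426, each the highest for its number but under 0.1, so the numbers were not taken as pairs. Over all genes, 1737 were called lower and 1683 higher, and leaving out shNC replicate 2 gave 1013 and 1025. Some genes of the described set with differences near 0 changed sign without passing the threshold. Rescaling gave -0.031 for FDPS, -0.024 for HSD17B7, -0.019 for SREBF2 and -0.030 for SCAP. Quantile normalization gave -0.001 for FDPS. Removing the regional median gave -0.047 for FDPS, 0.042 for SREBF1, -0.052 for SCAP and 0.000 for NPC1. In the related lists, it gave 0.020 for FNTA, -0.027 for GRAMD1A and 0.010 for RNF139. These 3 had been called at -0.22, 0.23 and -0.24, not near 0. Leaving out libraries gave ranges of -0.050 to 0.043 for MVD, -0.040 to 0.041 for FDPS, -0.060 to 0.008 for GGPS1, -0.092 to 0.023 for NSDHL, -0.007 to 0.011 for HSD17B7, -0.012 to 0.055 for SREBF2 and -0.021 to 0.027 for SCAP. Over all alternatives the other SREBP processing genes had 2 to 9 lower (7 with the settings used in the report) and 0 to 2 higher (1). The isoprenoid list had 1 to 2 lower (1) and 0 to 1 higher (1), the uptake list 0 to 2 lower (1) and 1 to 5 higher (3), and the LXR list 1 to 2 lower (2) and 1 to 2 higher (2). Depth limits ABCA1, ABCG1 and CYP51A1 most, at no more than 248 fragments per library.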
